A study of Mus musculus with 12 samples.

Results

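Liver gene expression was compared between wild-type (WT) mice that received CITCO and WT mice that received its vehicle, corn oil, with 3 mice in each group. These are 6 of the 12 libraries sequenced, and the groups were taken from the genotype and treatment in the sample labels. CITCO is an imidazothiazole oxime used as an activator of the human constitutive androstane receptor (CAR). This is the one pair of groups that differed by compound alone. All mice were adult males, and the WT mice carried mouse Car and mouse Pxr. They were injected intraperitoneally every day for 4 days with corn oil or with CITCO, and killed on day 5. CITCO was given at 10 mg/kg according to the labels, whereas the methods for the short-term work also list a higher one. The strain of the WT mice was not named, and the engineered lines were on a C57BL/6NTac background. A further 3 mice in which the human receptors replace both mouse ones (hCAR/hPXR) and 3 mice without mouse Car but with human PXR (Car KO/hPXR) received CITCO, and are used here to show levels beside those of the WT mice.

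CAR and the pregnane X receptor (PXR) are nuclear receptors of the hepatocyte that sense foreign compounds. On activation they bind DNA together with the retinoid X receptor and switch on cytochrome P450s, conjugating enzymes and transporters, with Cyp2b10 as the classical target of mouse CAR and Cyp3a11 as that of PXR. Activators of CAR are also known to drive hepatocyte proliferation in rodents. The question behind this comparison was therefore what a compound chosen for the human receptor does in the liver of a mouse that has only its own receptors.

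The 6 WT libraries held between 1370349 and 2341575 counts, so 3 counts in a library were worth 1.34 to 2.12 CPM, the TMM-scaled level per library used throughout. Hepatocyte markers were abundant in all 6 libraries, with a summed level of 50820 ± 3503 CPM with corn oil and 52340 ± 3833 with CITCO (SD, n = 3 each). The genes of both receptors were read in every WT library: Nr1i3, which encodes CAR, at 128, 73.3 and 130 CPM with corn oil and 119, 80.2 and 146 with CITCO, and Nr1i2, which encodes PXR, at 89.1, 70.5 and 93.6 against 74.0, 78.1 and 88.6. Reads from 3′ ends were counted on mouse genes only, and in the 6 humanised or knockout libraries neither gene had more than 6 counts. Between 10.2% and 13.4% of the WT counts came from mitochondrial genes. WT CITCO replicate 3 stood apart from the other WT CITCO mice in the serum amyloid genes, as described with the acute phase genes. It also differed more widely. Over the genes tested its log2 CPM correlated with WT CITCO replicates 1 and 2 at 0.935 and 0.926. Those 2 mice correlated with each other at 0.946, and replicate 3 with WT corn oil replicate 1 at 0.945.

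Expression differed in 25 of the 8594 genes tested, 0.291% of them, with 14 higher in the CITCO-treated mice (0.163%) and 11 lower (0.128%). A gene is said here to rise, fall or differ when the p-value of edgeR's quasi-likelihood test, adjusted by Benjamini-Hochberg over all genes tested, was under 0.05 and its fold change was over 1.5. In order of p-value the first 5 of the higher genes were Cish, Onecut1, Arid5b, Plk3 and Vmp1, and the first 5 of the lower genes AC154540.1, Frmd4b, Chrna4, Insig2 and Sgk2. The 3 CITCO mice lay wholly above or wholly below the 3 corn oil mice for each of the 25 genes, as they did for 6.84% of all genes tested in the upward and 7.87% in the downward direction. The median log2 fold change over all genes was -0.0008, so the groups were centred on each other. An unadjusted p under 0.05 was found for 366 genes that were higher (4.26%) and for 397 that were lower (4.62%). The number of genes called was 9, 5 and 55 without WT CITCO replicates 1, 2 and 3 in turn, and 23, 12 and 13 without WT corn oil replicates 1, 2 and 3. With any 1 of these 6 libraries left out, 5 genes passed the threshold in every fit: Cish, Onecut1, Arid5b, Plk3 and AC154540.1. Frmd4b and Vmp1 missed it only without WT CITCO replicate 2, Insig2 passed in 4 of the 6 fits and Chrna4 in 3, and 15 genes passed in only 1 or 2. Gbp11 passed in none of them, although it did with all 6. Just outside the threshold lay Gm22748, a small nucleolar RNA gene (adjusted p = 0.0517), Rdh11 (0.0749) and Wdr3 (0.0804), and just inside it Prox1 (0.0465) and Naa60 (0.0428).

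**Figure D1:**
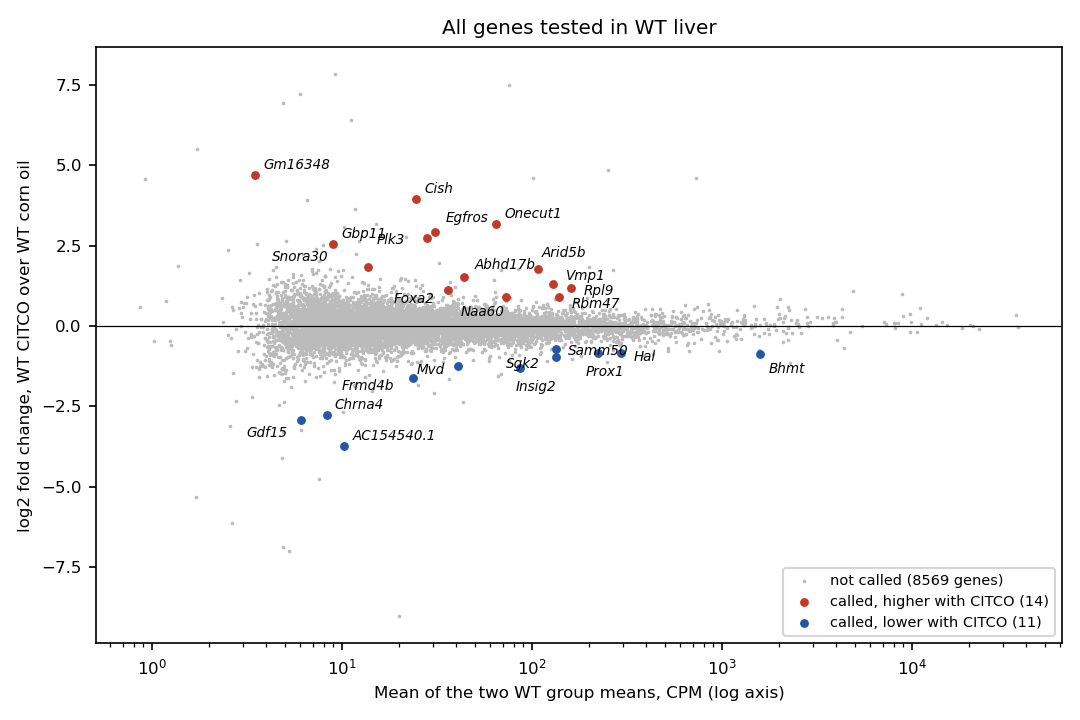
Log2 fold change of WT CITCO over WT corn oil (vertical axis) against the mean CPM of the 2 groups (log axis), 1 point per gene tested; red points are the 14 genes called higher and blue points the 11 called lower. At low CPM many uncalled genes lie as far from 0 as the called ones.

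**Figure D2:**
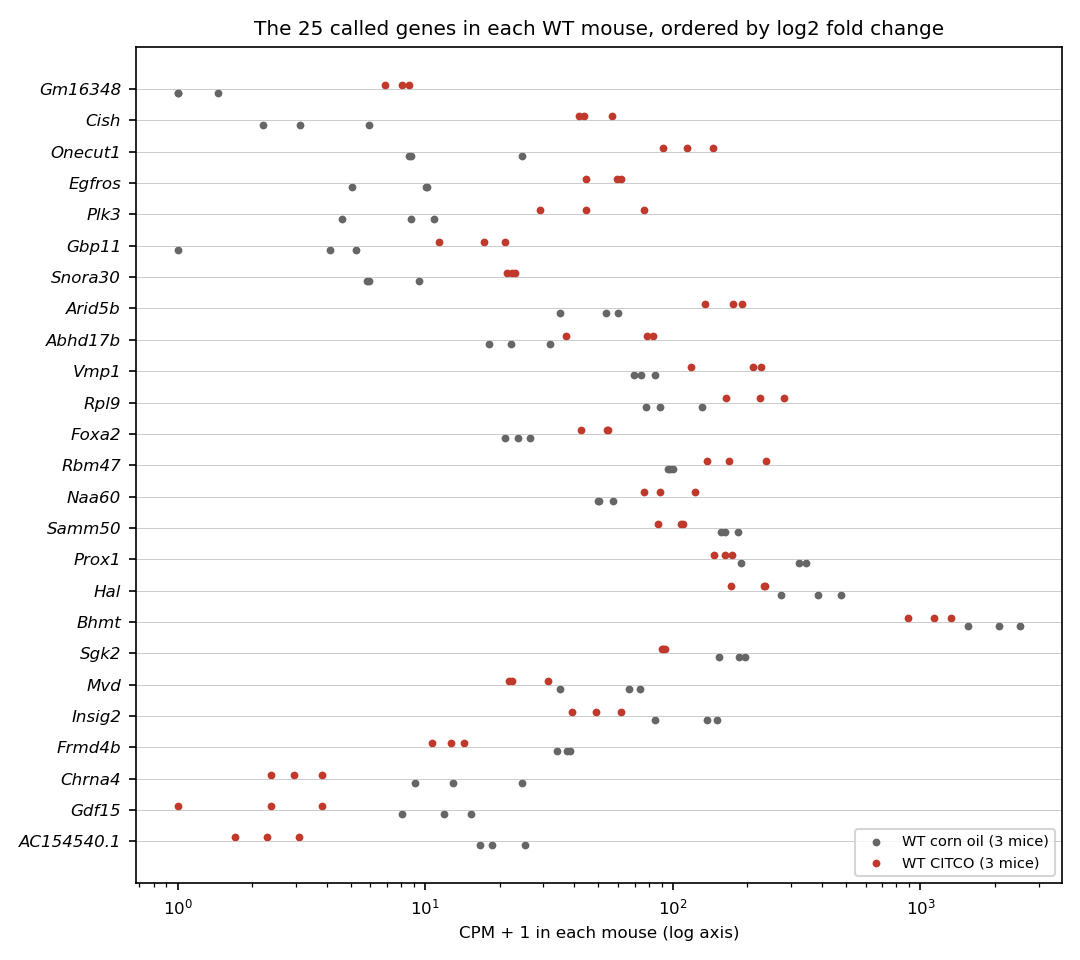
CPM + 1 in each mouse (log axis) for the 25 called genes, with corn oil mice in grey and CITCO mice in red. The 3 mice of each group do not overlap with the other 3 in any of the 25 genes, and the gap is widest on this scale for Cish, Onecut1 and AC154540.1 among genes that kept the call with any library left out.

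None of the tested genes that CAR and PXR are known to activate passed the threshold, which 0.291% of all genes tested passed. Of 50 listed targets that the table holds, 38 were read deeply enough to test, 18 were higher and 20 lower with CITCO, and their median log2 fold change was -0.03. Cyp2b10 and Cyp2c55 passed the filter through the hCAR/hPXR mice, where they were high. Leaving out the 4 targets whose median WT count was 3 or less in both groups (Cyp2b10, Cyp2c55, Ugt1a1 and Ugt1a9), 15 of 34 were higher and 19 lower, with a median of -0.04. Cyp2b10, the P450 that phenobarbital-type inducers raise most, had counts of 3, 0 and 0 with corn oil and 2, 6 and 2 with CITCO, which left every WT library at 6 counts or fewer, and no fold is given. Cyp2c55, another P450 that inducers raise from a low base, had counts of 4, 0 and 0 against 1, 4 and 0. Cyp3a11 was read at 1365, 702 and 907 CPM with corn oil and 756, 811 and 1120 with CITCO, and the groups overlapped (log2 fold change -0.15, SE 0.24, adjusted p = 0.914 by edgeR). Cyp2c29 was at 825, 475 and 446 against 850, 688 and 968 CPM, with 1 corn oil mouse at the level of the CITCO mice (log2 fold change 0.52, SE 0.20, adjusted p = 0.381 by edgeR).

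Among these 34 targets 3 were higher at an unadjusted p under 0.05 (Alas1, Por and Cyp2c29) and 2 were lower (the glutathione transferases Gstm2 and Gstt1), beside 4.26% and 4.62% of all genes. These counts moved with single libraries. Without WT CITCO replicate 3, 2 of 34 such targets were higher and 4 lower, with a median of -0.18. Without WT corn oil replicate 1, 8 of 34 were higher at an unadjusted p under 0.05 and none lower, their median was 0.07, and Cyp2c29 passed the threshold (log2 fold change 0.86, adjusted p = 0.0427 by edgeR). Alas1, the first and rate-limiting enzyme of heme synthesis, stood at 186, 51.5 and 129 CPM with corn oil and 477, 267 and 488 with CITCO, so that each CITCO mouse lay above each corn oil mouse. The fitted log2 fold change was 1.73 (SE 0.43, unadjusted p = 0.00357), but the adjusted p-value of 0.253 did not pass the threshold in edgeR's test. Alas1 did pass with DESeq2 on the 12 libraries and with edgeR without robust spread estimates. Por, which passes electrons to all microsomal P450s, was at 223, 214 and 206 against 354, 241 and 286 CPM, again without overlap (log2 fold change 0.45, SE 0.17, adjusted p = 0.342 by edgeR). On the lower side 3 targets did not overlap, Gstm2 (log2 fold change -0.50), Gstt1 (-0.31) and Gsta4 (-0.50), and none of them passed. Of the 38 targets tested, 2 thus lay wholly higher and 3 wholly lower, beside 6.84% and 7.87% of all genes. Ugt1a1 and Ugt1a9, 2 glucuronosyltransferases that share their 3′ exons with other Ugt1a genes, had the extreme fitted values of the list. Each had counts in a single WT library and 0 in the other five, and no fold is given. The receptor genes themselves did not pass the threshold, and the log2 fold change was 0.05 (SE 0.32) for Nr1i3, -0.08 (SE 0.22) for Nr1i2 and -0.25 (SE 0.17) for Rxra, which encodes their partner. For the 2 receptors the direction turned when single libraries were left out.

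Genes of the cell cycle were barely read in these livers. Only 10 of 36 listed genes passed the filter on low counts, 5 higher and 5 lower, none at an unadjusted p under 0.05. Mki67, a marker of dividing cells, had counts of 1, 6 and 1 with corn oil and 2, 1 and 0 with CITCO and was not tested. Pcna, the sliding clamp of DNA replication, was at 17.9, 7.05 and 8.45 CPM against 16.9, 13.1 and 21.8, with overlap (log2 fold change 0.58, SE 0.38, adjusted p = 0.704 by edgeR). At this depth a rise confined to few cells was not detectable.

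The gene with the smallest p-value was Cish, an SH2 protein that STAT5 induces and that damps signalling by growth hormone and other cytokines. In male rodents growth hormone reaches the liver in pulses, each of which sends STAT5 to the nucleus for a short time, and Cish, Socs2, Onecut1 and Bcl6 are among the genes known to follow it. Cish (chromosome 9, 107296026 to 107302784, plus strand, GRCm38) was read at 4.93, 2.12 and 1.21 CPM in the corn oil mice and at 55.8, 42.9 and 40.8 in the CITCO mice. All 3 CITCO mice were far above all 3 corn oil mice, and the counts behind them were 86, 62 and 58 against 11, 3 and 2. The fitted difference was 15.4-fold (log2 fold change 3.94, SE 0.44, adjusted p = 1.1e-05 by edgeR), and over the fits without 1 WT library the log2 fold change lay between 3.60 and 4.77. Onecut1, which encodes the homeodomain factor HNF6, was second, at 7.61, 7.76 and 23.6 CPM with corn oil and 144, 113 and 90.0 with CITCO. Onecut1 rose 8.99-fold (log2 fold change 3.17, SE 0.34, adjusted p = 0.000162 by edgeR), and the corn oil mouse nearest to the CITCO mice was replicate 3.

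Of the 17 genes of the growth hormone, STAT5 and IGF axis that were tested, Cish and Onecut1 rose and no other passed the threshold. Of all genes tested, 0.163% rose. The list's median log2 fold change was -0.16, with 8 genes higher and 9 lower. Without WT corn oil replicate 1 the median of the same genes was 0.19. Over the 19 list genes that this fit tested it was -0.23, with 9 higher and 10 lower. Bcl6, a repressor that is known to fall when STAT5 is active, was at 99.9, 91.7 and 106 CPM with corn oil and 38.92, 53.2 and 9.14 with CITCO. The groups did not overlap, but WT CITCO replicate 3 was far below the other two, and the difference did not pass (log2 fold change -1.55, SE 0.44, adjusted p = 0.292 by edgeR). Socs2, a second STAT5-induced inhibitor, was at 26.0, 25.4 and 50.7 against 103, 106 and 66.8 CPM, also without overlap (log2 fold change 1.44, SE 0.68, adjusted p = 0.599 by edgeR). Prlr, the prolactin receptor, was at 108, 121 and 47.1 against 42.8, 38.0 and 72.4 CPM, and overlapped (log2 fold change -0.85, SE 0.31, adjusted p = 0.381 by edgeR). Ghr, the growth hormone receptor, and Igf1, its main endocrine target, had log2 fold changes of -0.17 (SE 0.15) and -0.26 (SE 0.15), neither past the threshold. Hormone levels were not measured in these files. Each mouse was sampled only once, and the time of day is not given in the sources used here.

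STAT factors bind as dimers to sites of the form TTCNNNGAA, so the windows around the starts of these genes are shown for Cish, which had the smallest p-value, and Bcl6, which lay on the other side. The capitals mark each TTCNNNGAA, which reads the same on both strands, and the sequences run 5′ to 3′ on the gene's own strand, from RefSeq's annotation of GRCm38.p6. The first window is chr9:107296409-107296688 on the plus strand, from 250 bases before the Cish start to 30 bases after it. The others are the 250 bases before 2 annotated starts of Bcl6 on the minus strand, chr16:23988853-23989102 and chr16:23981284-23981533. The run of bases just after the second Bcl6 start was not found whole in any GENCODE transcript of the gene. Only windows that hold a motif are shown.
Cish: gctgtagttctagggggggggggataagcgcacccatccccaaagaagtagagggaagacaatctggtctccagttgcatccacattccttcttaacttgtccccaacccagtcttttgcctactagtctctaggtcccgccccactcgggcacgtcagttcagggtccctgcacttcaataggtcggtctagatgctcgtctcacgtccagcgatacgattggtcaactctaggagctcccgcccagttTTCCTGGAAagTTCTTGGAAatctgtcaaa
Bcl6 first start: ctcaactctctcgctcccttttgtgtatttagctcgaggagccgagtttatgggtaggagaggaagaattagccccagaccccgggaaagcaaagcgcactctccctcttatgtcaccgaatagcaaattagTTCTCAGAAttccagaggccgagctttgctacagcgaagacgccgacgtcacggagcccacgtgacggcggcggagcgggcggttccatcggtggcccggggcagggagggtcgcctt
Bcl6 second start: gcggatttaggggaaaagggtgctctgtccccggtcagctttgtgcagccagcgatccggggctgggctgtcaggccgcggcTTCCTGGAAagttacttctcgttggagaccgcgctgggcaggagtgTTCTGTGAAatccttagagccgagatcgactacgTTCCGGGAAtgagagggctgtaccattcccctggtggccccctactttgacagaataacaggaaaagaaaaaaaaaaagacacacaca
Cish holds 2 such motifs, at positions 1 and 12 counted from the annotated start, separated by only a few bases. Bcl6 holds 1 before the first start and 3 before the second. Of all 27025 genes with a window of 300 bases, 9.55% hold at least 1 TTCNNNGAA, against 4 of the 18 growth hormone axis genes with a window (Cish, Bcl6, Prlr and Igfals) and 3 of the 20 called genes with a window (Cish, Arid5b and Egfros). These windows and the motif were chosen after the values were seen, and a match of letters is not evidence of binding.

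Transcription factors that set hepatocyte identity differed in both directions. Of 34 tested, Onecut1 and Foxa2 rose and Prox1 fell, beside 0.163% and 0.128% of all genes tested. The median log2 fold change over the list was 0.02. Foxa2, a forkhead factor that opens liver chromatin, was at 25.5, 22.6 and 19.9 CPM with corn oil and 53.8, 53.2 and 41.5 with CITCO. The difference was 2.17-fold (log2 fold change 1.12, SE 0.23, adjusted p = 0.0245 by edgeR). Prox1, a homeobox factor that restrains several hepatocyte nuclear receptors, was at 188, 343 and 321 against 145, 162 and 172 CPM. Prox1 was 1.78-fold lower (log2 fold change -0.83, SE 0.19, adjusted p = 0.0465 by edgeR), with the first corn oil mouse close to the CITCO mice. With these 3 counted, 5 of the 34 lay wholly higher and 3 wholly lower, beside 6.84% and 7.87% of all genes. Thus another 5 factors of the list showed no overlap without passing the threshold. The lower ones were Rxra and Ppara, a receptor for fatty acids (log2 fold change -0.38, SE 0.18), and the higher ones were Hhex, a homeobox factor of liver development (38.1 ± 13.02 against 131 ± 39.8 CPM, SD, n = 3 each, adjusted p = 0.204 by edgeR), Foxa1 (5.18 ± 3.41 against 14.7 ± 4.18, adjusted p = 0.289 by edgeR) and Esrra, a receptor that drives mitochondrial genes (4.42 ± 0.94 against 10.9 ± 2.55, adjusted p = 0.338 by edgeR). Altogether 6 of the 34 were higher and 3 lower at an unadjusted p under 0.05, beside 4.26% and 4.62% of all genes.

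Genes of cholesterol synthesis mostly had lower fitted levels with CITCO. All 25 listed genes were tested, 22 had a lower fitted level with CITCO and 3 a higher one, and the median log2 fold change was -0.40 beside -0.001 over all genes. The 3 CITCO mice lay below the 3 corn oil mice for 10 of the 25 and above them for none, beside 7.87% and 6.84% of all genes, and 10 had an unadjusted p under 0.05 on the lower side, against 4.62% of all genes. Only Mvd of the 25 passed the threshold over all genes, where 0.128% of all genes tested fell. Mvd (chromosome 8, 122433601 to 122443422, minus strand), which makes isopentenyl pyrophosphate from mevalonate diphosphate, was at 34.0, 65.6 and 72.5 CPM with corn oil and 21.4, 20.7 and 30.2 with CITCO. It fell by 1.24 on the log2 scale (SE 0.26, adjusted p = 0.0310 by edgeR), and its lowest corn oil mouse, replicate 1, nearly met the highest CITCO mouse. Mvd lies within Gm20388, a much longer model on the other strand whose own level overlapped between the groups (21.98 ± 1.55 against 14.2 ± 12.9 CPM, SD, n = 3 each).

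Other members of the pathway lay on the same side without passing. Hmgcs1, which makes HMG-CoA, was at 412, 542 and 567 against 274, 173 and 371 CPM (log2 fold change -0.89, SE 0.29, adjusted p = 0.336 by edgeR). Pmvk, the kinase that acts just before Mvd, was at 69.9 ± 17.1 against 39.2 ± 11.9 CPM (SD, n = 3 each, log2 fold change -0.82, adjusted p = 0.223 by edgeR). Sc5d, a late desaturase of the pathway, was at 638 ± 120 against 399 ± 16.5 CPM (log2 fold change -0.68, adjusted p = 0.107 by edgeR). Insig1, which holds the SREBP activator SCAP in the endoplasmic reticulum and is itself an SREBP target, was at 116, 118 and 116 against 82.4, 72.6 and 55.6 CPM (log2 fold change -0.73, SE 0.19, adjusted p = 0.105 by edgeR). Sqle, squalene epoxidase, had a log2 fold change of -0.53 (SE 0.22). Summed over the list, the corn oil mice had 3895, 4750 and 4926 CPM and the CITCO mice 3404, 3010 and 3727, without overlap (p = 0.1 in a two-sided exact permutation test, which cannot go lower with groups of 3). Leaving out WT CITCO replicate 2 brought the median to -0.22 with 20 of 25 lower, and leaving out replicate 3 brought it to -0.49 with 22 of 25 lower.

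**Figure D3:**
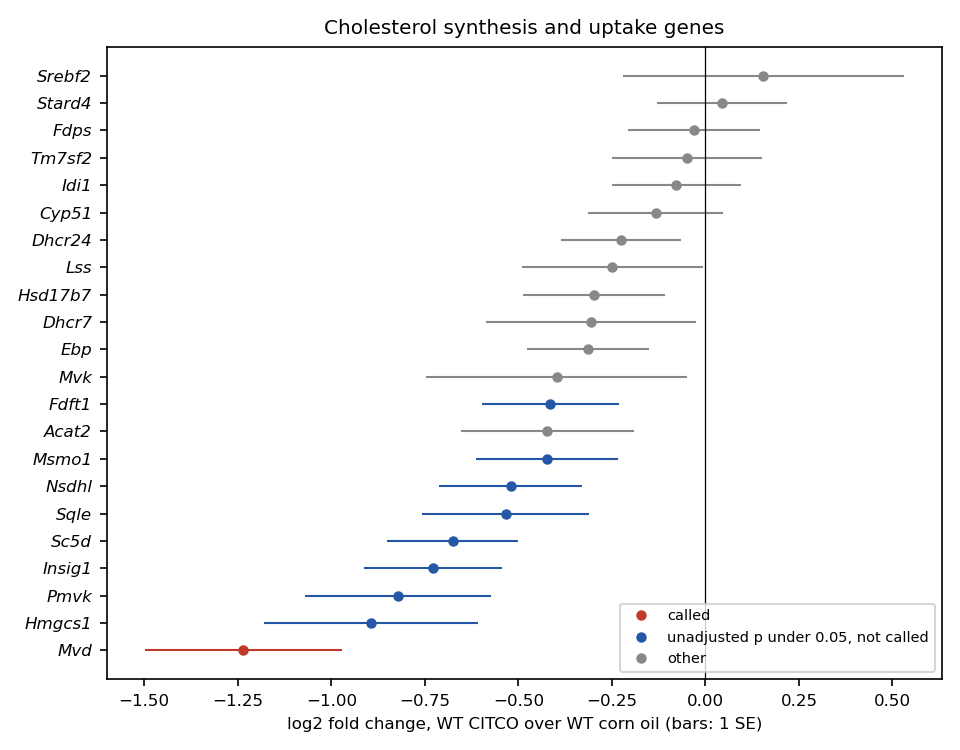
Log2 fold change of WT CITCO over WT corn oil (horizontal axis) for 22 of the 25 cholesterol genes, with bars of 1 SE; the called gene is red and those with an unadjusted p under 0.05 but not called are blue. Of the genes plotted all but Srebf2 and Stard4 lie below 0, and Mvd lies lowest.

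Insig2, a second SCAP anchor that in liver has a transcript repressed by insulin, fell as well and is listed here with fatty acid synthesis. Insig2 (chromosome 1, 121304353 to 121332589, minus strand) was at 83.3, 150 and 136 CPM with corn oil and 61.0, 38.0 and 47.8 with CITCO. The fall was 2.49-fold (log2 fold change -1.32, SE 0.23, adjusted p = 0.00549 by edgeR). Of 28 genes of fatty acid and triglyceride synthesis tested, 22 were lower and 6 higher, 6 of the lower ones at an unadjusted p under 0.05 (4.62% of all genes) and none of the higher (4.26%). Fasn, fatty acid synthase, was at 154, 355 and 508 against 140, 119 and 208 CPM, and Scd1, the stearoyl-CoA desaturase, at 2103, 2992 and 4401 against 642, 1000 and 2594 CPM, with wide spread and overlap in both. Acss2, which makes acetyl-CoA from acetate, was at 100.5 ± 19.8 against 61.3 ± 16.4 CPM without overlap (SD, n = 3 each, log2 fold change -0.71, adjusted p = 0.223 by edgeR). The list's median of -0.27 was -0.10 when corn oil replicate 3 was left out and -0.43 when corn oil replicate 1 was.

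Promoters of cholesterol genes are known for CCAAT boxes, which bind NF-Y beside the sterol element that SREBP binds, and the 250 bases before the start are shown for Mvd, the member that passed, and Hmgcs1, a classical SREBP target. Capitals mark CCAAT or its reverse ATTGG, and the sterol element form TCACNCCAC where present. The Mvd window is chr8:122443423-122443672 on the minus strand and the Hmgcs1 window chr13:119690101-119690350 on the plus strand, both from RefSeq on GRCm38.p6 and written 5′ to 3′ on the gene's strand.
Mvd: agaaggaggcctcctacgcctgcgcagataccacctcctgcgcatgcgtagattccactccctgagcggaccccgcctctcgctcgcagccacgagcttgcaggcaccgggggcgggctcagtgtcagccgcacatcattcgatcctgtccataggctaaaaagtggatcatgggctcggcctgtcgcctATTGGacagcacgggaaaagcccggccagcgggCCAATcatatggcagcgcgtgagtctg
Hmgcs1: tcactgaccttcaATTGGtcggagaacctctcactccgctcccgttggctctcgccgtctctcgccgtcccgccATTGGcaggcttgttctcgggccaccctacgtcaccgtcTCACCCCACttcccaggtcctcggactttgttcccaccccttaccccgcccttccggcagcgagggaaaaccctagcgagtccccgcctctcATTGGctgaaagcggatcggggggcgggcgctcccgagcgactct
Mvd holds the box at -60 and -27, and Hmgcs1 holds 3 boxes before its start with 1 TCACNCCAC at -137. The run of bases just after this Hmgcs1 start was not found whole in any GENCODE transcript of the gene. In windows of 300 bases, 16 of the 17 cholesterol genes with a window hold CCAAT on either strand, against 41.1% of all 27025 genes and 12 of 20 called genes. TCACNCCAC was found for 1 of the 17 and 1.44% of all genes. These motifs were also picked after the values were seen, and no match says only that these letters are not in this window.

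Genes of amino acid breakdown contributed 2 of the lower genes, from 59 tested, where 0.128% of all genes tested fell. Bhmt, which remethylates homocysteine from betaine, was at 2520, 1557 and 2076 CPM with corn oil and 890, 1131 and 1324 with CITCO, and fell 1.84-fold (log2 fold change -0.88, SE 0.19, adjusted p = 0.0346 by edgeR). Hal, histidine ammonia-lyase, was at 476, 385 and 272 against 171, 233 and 234 CPM and fell 1.78-fold (log2 fold change -0.83, SE 0.18, adjusted p = 0.0373 by edgeR). All 59 listed genes of this group were tested: 40 were lower and 19 higher, with a median log2 fold change of -0.15, and 10 were lower and 3 higher at an unadjusted p under 0.05 (4.62% and 4.26% of all genes). Ftcd, the last enzyme of histidine breakdown, was at 779 ± 42.9 against 541 ± 97.2 CPM without overlap (SD, n = 3 each, adjusted p = 0.269 by edgeR), and Amt, of the glycine cleavage system, at 105 ± 6.55 against 69.3 ± 12.1 (adjusted p = 0.292 by edgeR). Hal also belongs to the genes of periportal hepatocytes, where 16 of 20 were lower, 4 of them (Hal, Cdh1, Ass1 and Sds) at an unadjusted p under 0.05 beside 4.62% of all genes, whereas 7 of 19 pericentral genes were lower. The medians were -0.18 and 0.04. Without WT corn oil replicate 1, the periportal median was -0.06 and that of amino acid breakdown -0.03.

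The remaining protein-coding genes that rose have diverse roles. Arid5b, a chromatin-binding factor linked to fat storage, was at 59.1, 52.9 and 33.8 CPM with corn oil and 173, 189 and 134 with CITCO, a 3.38-fold rise (log2 fold change 1.76, SE 0.24, adjusted p = 0.000362 by edgeR). Plk3, a stress-responsive polo-like kinase, was at 9.85, 7.76 and 3.62 against 75.2, 43.5 and 28.1 CPM, a 6.73-fold rise (log2 fold change 2.75, SE 0.39, adjusted p = 0.000847 by edgeR). Its spread among the CITCO mice was wide, and the lowest of them was still above every corn oil mouse. Vmp1, a membrane protein of autophagy whose locus also holds Mir21a, was at 83.8, 68.4 and 73.1 against 209, 227 and 118 CPM (log2 fold change 1.29, SE 0.21, adjusted p = 0.00246 by edgeR). Abhd17b, a depalmitoylating enzyme, rose 2.86-fold, Rbm47, an RNA-binding protein of editing and splicing, 1.86-fold, and Naa60, a protein acetyltransferase of the Golgi, 1.85-fold (adjusted p = 0.00953, 0.0226 and 0.0428 by edgeR). Gbp11, of the interferon-inducible guanylate-binding family, had counts of 7, 0 and 7 with corn oil and 16, 29 and 23 with CITCO (log2 fold change 2.55, SE 0.56, adjusted p = 0.0346 by edgeR). Rpl9, of the large ribosomal subunit, rose 2.25-fold (adjusted p = 0.0198 by edgeR), alone among 82 ribosomal protein genes tested. These genes have many near-identical copies in the genome, and how reads were divided between them is uncertain.

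Among the genes that fell, Frmd4b, a scaffold protein of cell junctions, was at 36.3, 33.1 and 37.4 CPM with corn oil and 11.7, 9.68 and 13.4 with CITCO. Its level was 3.07-fold lower (log2 fold change -1.62, SE 0.27, adjusted p = 0.00246 by edgeR). Sgk2, a kinase related to the glucocorticoid-induced Sgk1, was at 183, 195 and 153 against 90.2, 91.9 and 89.3 CPM (log2 fold change -0.97, SE 0.20, adjusted p = 0.0226 by edgeR). Samm50, the pore of the mitochondrial outer membrane sorting machinery, was at 155, 161 and 182 against 86.3, 107 and 109 CPM (log2 fold change -0.72, SE 0.16, adjusted p = 0.0404 by edgeR). Gdf15, a stress-induced hormone that suppresses appetite, had counts of 32, 10 and 18 against 0, 2 and 4, and Chrna4, a subunit of nicotinic acetylcholine receptors, counts of 18, 17 and 39 against 3, 2 and 4. Scaled to the libraries, the summed counts were 8.31 times higher with corn oil for Gdf15 (95% exact interval 3.60 to 23.5) and 6.83 times for Chrna4 (3.41 to 15.5), intervals that cover counting error only. Their adjusted p-values were 0.0270 and 0.00549 by edgeR.

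The other called genes are non-coding or overlap larger genes. AC154540.1 (chromosome 16, 23110753 to 23110858, plus strand), annotated as a microRNA gene, had counts of 35, 25 and 40 with corn oil and 2, 3 and 1 with CITCO, 13.9 times lower when summed and scaled (95% exact interval 6.15 to 38.6, counting error only; adjusted p = 0.00112 by edgeR). It lies inside Eif4a2 and over Snora81 on the same strand, and Eif4a2 itself was at 218 ± 16.9 against 186 ± 23.6 CPM (SD, n = 3 each) and did not pass. How reads were divided between AC154540.1 and the models it overlaps is uncertain. Snora30, a small nucleolar RNA inside Srcap, had counts of 11, 12 and 8 against 34, 31 and 29 (log2 fold change 1.83, SE 0.39, adjusted p = 0.0294 by edgeR). Srcap had 11 counts or fewer in each WT library and was not tested. Of 16 small nucleolar RNA genes tested, 11 were higher and 5 lower, with a median log2 fold change of 0.68. That class was chosen after the values were seen. Egfros, antisense to Egfr, rose from counts of 9, 13 and 15 to 90, 88 and 62 (log2 fold change 2.91, SE 0.51, adjusted p = 0.0346 by edgeR), while Egfr was at 366 ± 58.7 against 294 ± 69.7 CPM. Gm16348 had 1, 0 and 0 counts with corn oil and 9, 11 and 10 with CITCO, a ratio of 36.1 with an interval of 6.001 to 1473 (adjusted p = 0.0188 by edgeR). Whether strand was used in counting is not given in the sources used here, so reads of genes that overlap on opposite strands cannot be told apart. Cish overlaps Gm17040 and Gm17041 on the other strand and Onecut1 overlaps Gm20649 on its own strand, and these 3 models had no more than 2 counts in any WT library.

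Acute phase genes of the liver summed to 44990, 46490 and 41610 CPM with corn oil and 56780, 52120 and 39160 with CITCO, higher in 2 of the 3 CITCO mice and lowest in the third. Saa1, a serum amyloid that the liver makes on inflammatory signals, was at 99.9, 53.6 and 18.1 CPM with corn oil and 2321, 1827 and 78.1 with CITCO, so that WT CITCO replicate 3 lay within the corn oil range. Saa2 followed it, at 27.3, 12.7 and 8.45 against 956, 476 and 24.6 CPM, and the 2 genes are close copies between which reads may be divided. Neither passed the threshold (log2 fold change 4.60, SE 1.37, adjusted p = 0.337, and 4.84, SE 1.321, adjusted p = 0.300, by edgeR). Of 35 acute phase genes tested, 27 were higher and 8 lower, 11 of the higher ones at an unadjusted p under 0.05 against 4.26% of all genes, and the median log2 fold change was 0.34. Hp, haptoglobin, was at 1397, 1510 and 1459 against 3553, 2615 and 1612 CPM, and Steap4, an inflammation-induced metalloreductase, at 11.7, 15.5 and 9.66 against 37.6, 46.3 and 13.4, with replicate 3 again nearest to the corn oil mice (adjusted p = 0.320 and 0.181 by edgeR). Without WT CITCO replicate 3 the number at an unadjusted p under 0.05 was 15, without replicate 1 it was 5, and without corn oil replicate 3 it was 6. Socs3, a feedback inhibitor that IL-6 and other cytokines induce, was at 4.03, 1.41 and 0.604 against 7.14, 13.8 and 10.6 CPM without overlap (log2 fold change 2.22, SE 0.57, unadjusted p = 0.000551, adjusted p = 0.107 by edgeR). In 32 tested genes of IL-6, IL-1 and NF-kB signalling, 3 were higher and 1 lower at an unadjusted p under 0.05 (4.26% and 4.62% of all genes).

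The markers of resident macrophages are given beside them. The 12 Kupffer cell markers summed to 426, 418 and 334 CPM in the corn oil mice and 581, 574 and 418 in the CITCO mice, where replicate 3 was again the lowest (two-sided exact permutation test, p = 0.3). All 12 were tested and 11 were higher, 4 at an unadjusted p under 0.05 (4.26% of all genes), with a median log2 fold change of 0.45. The CITCO mice lay wholly above the corn oil mice for 2 of the 12 and wholly below for 1, beside 6.84% and 7.87% of all genes. Among the higher markers were C1qb, a complement subunit made by macrophages (14.5 ± 1.45 against 28.2 ± 3.68 CPM, SD, n = 3 each, adjusted p = 0.269 by edgeR), and the scavenger receptor Marco (8.86 ± 4.84 against 20.7 ± 6.30, adjusted p = 0.275 by edgeR). In bulk liver, more cells of a type and more RNA per cell cannot be told apart. Neutrophil markers summed to between 4.03 and 14.3 CPM in the 6 WT libraries, with Ly6g and Elane at 0 in all of them, and T and NK cell markers to between 4.83 and 20.4 CPM with Cd3g at 0. Sinusoidal endothelial markers were at 335 ± 4.09 against 328 ± 21.2 CPM (SD, n = 3 each, exact permutation p = 0.9). Whether inflammation or macrophage content bears on the called genes was not tested.

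**Figure D4:**
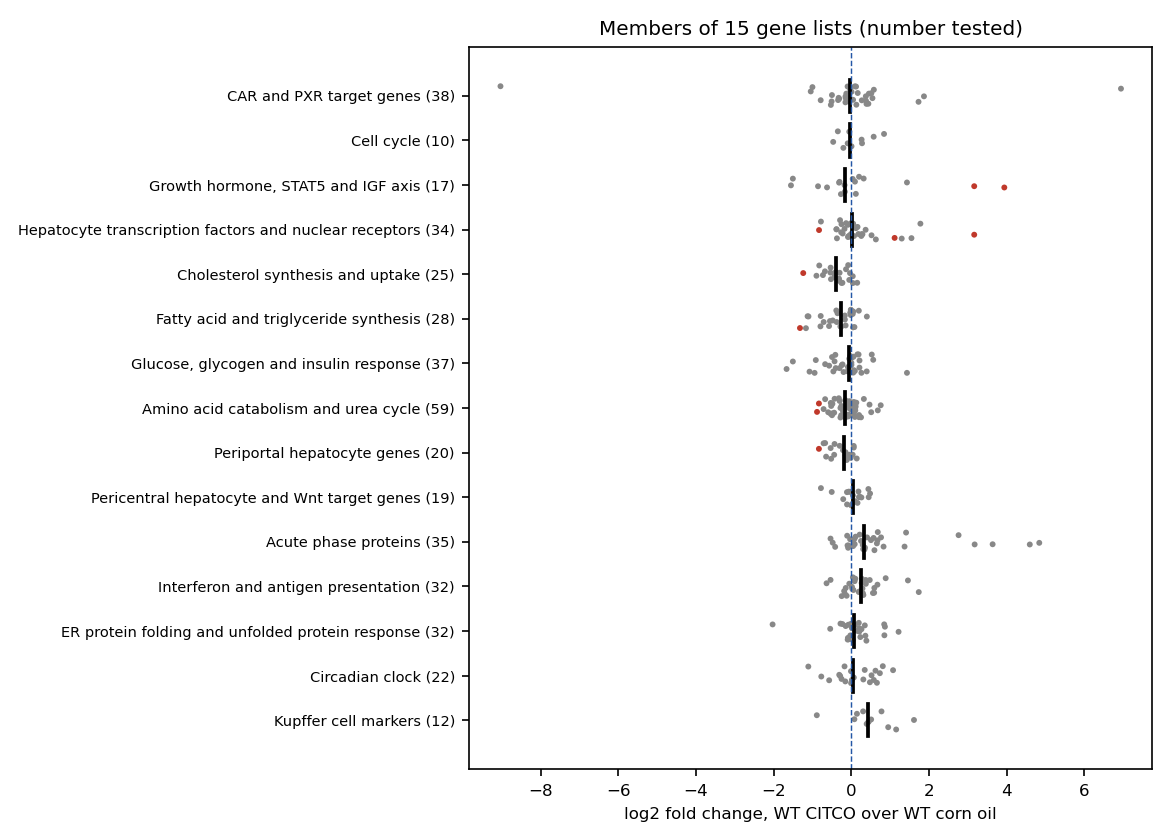
Log2 fold change of each tested member (points; called genes in red) of 15 gene lists, with the list median as a black bar and the median of all genes as a dashed line. The medians of cholesterol synthesis (-0.40) and fatty acid synthesis (-0.27) lie to the left and those of Kupffer cell markers (0.45) and acute phase proteins (0.34) to the right, while that of CAR and PXR targets (-0.03) lies near the line.

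The CITCO-treated humanised and knockout mice show how the same genes stood where mouse Car was absent. These comparisons share the WT CITCO libraries with the one above and have no corn oil mice of their own genotype, so the genotype and the response cannot be told apart in them. Cish was at 4.14, 2.89 and 3.34 CPM in the hCAR/hPXR mice, near the WT corn oil level, and at 30.5, 9.19 and 12.3 in the Car KO/hPXR mice, between the 2 WT groups. WT CITCO exceeded hCAR/hPXR by 3.71 on the log2 scale (SE 0.43, adjusted p = 8.24e-06 by edgeR) and Car KO/hPXR by 1.38 (SE 0.35, adjusted p = 0.0863). Onecut1 was at 37.3, 19.7 and 26.7 CPM in hCAR/hPXR mice and 47.6, 41.8 and 43.5 in Car KO/hPXR mice, below every WT CITCO mouse in both (log2 difference 2.04, adjusted p = 0.00368, and 1.38, adjusted p = 0.0575, by edgeR). Arid5b and Plk3 in WT CITCO mice exceeded the Car KO/hPXR level (log2 difference 1.16, adjusted p = 0.0177, and 1.95, adjusted p = 0.0158, by edgeR) but not, past the threshold, the hCAR/hPXR level (0.87, adjusted p = 0.111, and 1.22, adjusted p = 0.159). Cish, Onecut1, Arid5b and Plk3 were called for a high level in these same WT CITCO mice, so such excesses are partly built in.

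Several of the lower genes stood near or above the WT corn oil level in the Car KO/hPXR mice. Insig2 was at 101, 142 and 103 CPM there, and WT CITCO was lower by 1.23 on the log2 scale (SE 0.23, adjusted p = 0.0120 by edgeR), as it was for Frmd4b by 1.77 (adjusted p = 0.000775), Samm50 by 0.97 (adjusted p = 0.00242), Mvd by 1.23 (adjusted p = 0.0256) and Hal by 0.93 (adjusted p = 0.0138). These genes, and Bhmt and Gdf15 below, were called for a low level in the WT CITCO mice, so such differences are partly built in. Summed over the cholesterol list, the Car KO/hPXR mice had 5825, 4175 and 5217 CPM. The hCAR/hPXR mice had 3557, 3969 and 3233 CPM, near the WT CITCO mice at 3404, 3010 and 3727. Bhmt divided the genotypes, with 593, 689 and 723 CPM in the hCAR/hPXR mice, below every WT CITCO mouse, and 2611, 1820 and 1901 in the Car KO/hPXR mice, above every one of them. WT CITCO was lower than Car KO/hPXR by 0.92 on the log2 scale (SE 0.19, adjusted p = 0.0177 by edgeR), and its difference from hCAR/hPXR did not pass (adjusted p = 0.0951). Gdf15 was at 13.5 ± 4.77 CPM in hCAR/hPXR mice (SD, n = 3) and lower in WT CITCO mice by 3.24 on the log2 scale (adjusted p = 0.00599 by edgeR). Saa1 spread from 1075 to 6566 CPM in the hCAR/hPXR mice and from 82.1 to 381 in the Car KO/hPXR mice. For scale, Cyp2b10 was at 146, 167 and 154 CPM in the hCAR/hPXR mice and at no more than 4.15 in any WT CITCO mouse.

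**Figure D5:**
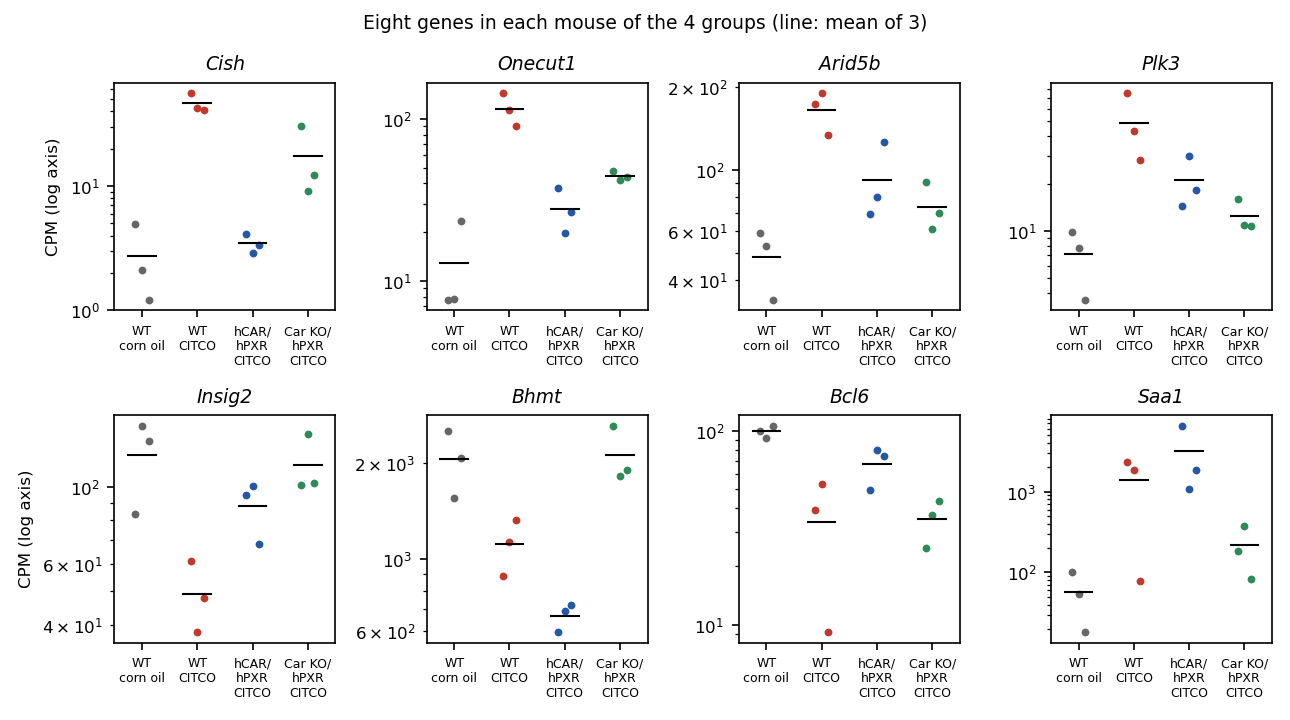
CPM in each mouse (points, log axis) and group mean (line) for 8 genes in the 4 groups; the vertical scales differ between panels. The group means of Cish, Onecut1, Arid5b and Plk3 are highest in the WT CITCO mice and that of Insig2 is lowest there, Bhmt is lowest in the hCAR/hPXR mice, and 1 WT CITCO mouse lies with the corn oil mice for Saa1.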

How the data were processed

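Liver RNA was made into 3′ mRNA libraries (Lexogen QuantSeq, Ion Torrent). Per the submitters' processing notes and the methods, the authors used Trimmomatic 36, STAR 2.5.2 and RSEM 1.3 with Ensembl release 89 of GRCm38 to make the deposited expected counts of 51912 genes, which were rounded to whole numbers here (9.34% of the values of the 20240 detected genes were not whole). The authors also deposited variance-stabilised log2 values of 17859 genes from DESeq2, used here only for an alternative.

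Genes were filtered with filterByExpr, leaving 8594, scaled by TMM and fitted over all 12 libraries in 4 groups with edgeR 4.0.16 (quasi-likelihood, robust, R 4.3.3). All groups shared 1 estimate of the spread. Alternatives used DESeq2 1.42.0 and limma 3.58.1, other filters and scalings, the replicate block and each WT library left out. The fit without robust spread estimates, and the count of targets without those at a median of 3 counts or fewer in both WT groups, were chosen after seeing the data. The genes named were all called genes, the receptors with their classical targets and 2 cell cycle genes, Saa1 and Saa2, the 5 uncalled genes of smallest adjusted p-value and, of each list, up to 4 tested genes of smallest unadjusted p-value and the 2 of highest level. Host and overlapping genes, and Socs2, Ghr, Foxa1, Esrra, Hmgcs1, Sqle, Fasn, Gstt1, Gsta4, Ppara and Ugt1a genes, were named outside this rule after their values were seen. The lists, members and tests were chosen with earlier results of these data known. Coordinates are from GENCODE M21, and promoter windows and motifs from RefSeq. Same-numbered WT mice did not deviate together (correlations of -0.07, 0.04 and -0.0008), so the numbers were not taken as pairs. Each library is 1 mouse. On data simulated for this comparison, with 8306 genes tested, 87.1% of 4-fold and 36.2% of 2-fold changes were recovered. Of the 125 calls there, 6 were false. The simulated mice of a group shared 1 mean per gene, so no mouse was made to stand apart as WT CITCO replicate 3 did. Some genes of cholesterol metabolism are counted in their list but not reported here.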

Additional observations from a re-analysis of the deposited data

How the results depend on the processing

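All of the 25 called genes that an alternative tested kept their direction in it. The number called was 120 without a filter on low counts (57 higher, 63 lower), 45 with DESeq2 on the 12 libraries (23 and 22), 51 with DESeq2 on the 6 WT libraries (26 and 25, with 19 of the 25 among them) and 35 with limma on the deposited log2 values (18 and 17). It was 20 without robust spread estimates (15 and 5), an alternative chosen after seeing the data, and 14 of the 25 were among them. With edgeR on the 6 WT libraries alone 28 genes were called (17 and 11), among them 16 of the 24 that were tested. Leaving out 1 WT library gave between 5 and 55 calls, between 4 and 32 of them higher and between 1 and 23 lower. The fit without a filter tested 20087 genes, and for the other moves the cause was not tested. With the replicate number as a block, 24 genes were called (14 higher, 10 lower) and 18 of the 25 were among them, but the same-numbered mice share only a number. Among uncalled genes the log2 fold change turned in Nr1i2 (-0.18 to 0.00017 over fits without 1 library), Nr1i3 (-0.16 to 0.26, with -0.15 without WT CITCO replicate 3) and Cyp3a11 (-0.34 to 0.16). List medians moved in 22 of the 555 cases by more than the spread between mice. With 1370349 to 2341575 counts a WT library, 3 counts stand for 1.34 to 2.12 CPM. Small differences in genes near that level were not detectable, while large ones such as that of Gm16348 were.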

Other observations

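Of 37 genes of glucose and glycogen handling tested, 8 were lower and 2 higher at an unadjusted p under 0.05 (4.62% and 4.26% of all genes), none past the threshold over all genes, and the median log2 fold change was -0.05. Ppp1r3b, which brings protein phosphatase 1 to glycogen, was at 103 ± 34.2 CPM with corn oil and 48.6 ± 14.3 with CITCO (SD, n = 3 each, adjusted p = 0.181 by edgeR), and Ppp1r3c, a related targeting subunit, at 55.2 ± 9.84 against 17.5 ± 16.1 (adjusted p = 0.282 by edgeR). The adjusted p-value of Ppp1r3c was 4.68e-05 without WT CITCO replicate 3 and 0.582 in the weakest of the fits that left out a library. Igfbp1, a secreted binder of insulin-like growth factors that insulin represses, was at 102.0 ± 12.0 against 36.2 ± 22.6 CPM without overlap (adjusted p = 0.381 by edgeR), and the glucagon receptor Gcgr at 200 ± 1.20 against 150 ± 9.46 (adjusted p = 0.337 by edgeR). Fbp1, a gluconeogenic phosphatase, lay on the other side, at 352 ± 37.2 against 508 ± 48.3 CPM (adjusted p = 0.215 by edgeR).

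Interferon and antigen presentation genes had higher fitted levels in 24 of 32 tested, 4 of them at an unadjusted p under 0.05 and 1 lower (4.26% and 4.62% of all genes), with a median log2 fold change of 0.24. Irgm1, an interferon-induced GTPase, was at 3.41 ± 1.78 against 11.6 ± 3.87 CPM (SD, n = 3 each, adjusted p = 0.160 by edgeR). In the clock, Dbp was at 66.7 ± 9.34 against 103 ± 8.63 CPM and Nr1d1, a repressor of the clock, at 80.9 ± 10.4 against 37.8 ± 17.0, both without overlap (adjusted p = 0.264 and 0.282 by edgeR), while the 22 genes tested had a median of 0.04. Xbp1, a factor of the unfolded protein response, was at 139 ± 22.6 against 251 ± 57.1 CPM (adjusted p = 0.0807 by edgeR), and 20 of 32 genes of that response were higher. Lists with medians near 0 were the 82 ribosomal protein genes (median 0.07), 75 genes of the nuclear-encoded respiratory chain (0.03), 41 of the proteasome (-0.01), 49 of fatty acid oxidation (0.08) and 26 NRF2 targets (-0.05).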
